A study of Mus musculus with 8 samples.

Results

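The 10 genes described here mark or maintain radial glia, the stem cells of the embryonic cortex. They are the transcription factors Pax6, Sox2, Sox9, Emx2, Lhx2, Nr2e1 and Gli3 and the structural or surface markers Nes, Prom1 and Fabp7. They are a list of names with no threshold on their values, and all 10 were found among the 27178 genes of the count tables. The 10 genes were chosen with earlier results of these data known, so their counts beside the shares of all genes are a description only. Their levels were followed through 8 RNA sequencing libraries of mouse cortex, 2 in each of 4 groups, from a study that by its title concerns the long noncoding RNA Lockd and the cell cycle of cortical progenitors. Control and shRNA libraries came from ICR embryos that carried no genetic change. A plasmid at 3 µg/µl, without or with a short hairpin RNA (shRNA) against Lockd, had been electroporated through their lateral ventricle at embryonic day (E) 14.5, and GFP-positive cells of the cortex were collected by flow cytometry at E16.5. These cells are therefore the descendants of whichever progenitors took up plasmid. Wild-type (WT) and PlyA-KI libraries came from whole dissected cortices of untreated C57BL/6 embryos at E13.5, with cortices pooled. The labels do not describe the PlyA-KI allele. The design text calls the replicates biological. It names neither litters nor numbers of embryos, so a p-value here reflects no more than how far these 8 libraries scatter, which may be technical.

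Levels of a gene are given as CPM, its count in a library scaled to 1000000 counts. Lockd itself lay at 8.90 and 7.80 CPM with the control plasmid and, without overlap, at 4.85 and 2.83 CPM with the shRNA. It lay at 22.1 and 24.0 CPM in wild type and at 0.102 and 0.0569 CPM in PlyA-KI, the latter being 4 and 2 counts. Libraries held 12805874 to 15911118 counts in the electroporation experiment and 35167646 to 47460020 in the E13.5 experiment, and replicates of every group differed by more than sampling noise (chi-square per gene 11.8 to 24.0, where sampling alone gives 1). Defining genes of the cortex were present in all 8 libraries. Emx1, a dorsal forebrain factor, lay between 62.6 and 145.6 CPM, and Eomes, the marker of intermediate progenitors, between 402 and 655 CPM.

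Radial glia line the ventricle, span the cortical wall with a long process and divide at the ventricular surface. They renew themselves and produce intermediate progenitors and neurons. Their identity rests on a set of transcription factors that pattern the cortex and hold cells in the progenitor state, among them Pax6, which drives neurogenesis from dorsal radial glia, Emx2 and Lhx2, homeodomain factors that pattern the cortical sheet, the SOX factors Sox2 and Sox9, the orphan nuclear receptor Nr2e1 (also called Tlx), and Gli3, a mediator of Hedgehog signalling that acts largely as a repressor in the dorsal forebrain. Nestin (Nes) is the intermediate filament of neural progenitors and is also made by cells of growing blood vessels. Prominin-1 (Prom1, CD133) is a glycoprotein of membrane protrusions at the apical surface, and brain lipid-binding protein (Fabp7) carries fatty acids in radial glia and is a known target of Notch signalling through its DNA-binding partner RBPJ.

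On GRCm38, the build of the files, Pax6 (Entrez 18508) spans chromosome 2 from 105668896 to 105698410 and Lhx2 (16870) the same chromosome from 38339271 to 38369737. Sox2 (20674) lies on chromosome 3 from 34649995 to 34652461 and Nes (18008) on chromosome 3 from 87971093 to 87980451. Nr2e1 (21907) lies on chromosome 10 from 42561963 to 42583590 and Fabp7 (12140) on chromosome 10 from 57784923 to 57788450. Prom1 (19126) spans chromosome 5 from 43993621 to 44102047, Sox9 (20682) chromosome 11 from 112782210 to 112787757, Gli3 (14634) chromosome 13 from 15463723 to 15730026 and Emx2 (13797) chromosome 19 from 59458690 to 59465357. Sox2 lies inside Sox2ot, a noncoding gene on the same strand with which it shares no exon base in the GENCODE annotation, and Sox2ot stood at 9.85 to 12.1 CPM in the sorted cells and 31.4 to 37.5 CPM in the E13.5 cortex. Emx2 shares 264 exon bases with Emx2os on the opposite strand, which stood at 2.14 to 4.25 CPM and 15.7 to 19.3 CPM in the same experiments. No source used here gives the strand setting of the counting, so reads of Emx2 and Emx2os cannot be told apart in the shared bases. The same holds for Gli3 and Prom1, which share 188 and 424 exon bases with the antisense genes Gm6556 and Gm16401.

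The 250 bases upstream of an annotated start are shown for the 2 genes that differed most between the sorted cells and the E13.5 cortex, Nes and Nr2e1, and for the 2 that did not share their direction, Fabp7 and Lhx2. Sequences are from RefSeq on GRCm38.p6, read 5′ to 3′ along the strand of the gene, with matches to the RBPJ core TGGGAA or its reverse complement TTCCCA in capitals. The Lhx2 window belongs to the first of its 2 starts in that table, and its last bases fall within the span given above.
Nes, chr3:87970843-87971092, plus strand: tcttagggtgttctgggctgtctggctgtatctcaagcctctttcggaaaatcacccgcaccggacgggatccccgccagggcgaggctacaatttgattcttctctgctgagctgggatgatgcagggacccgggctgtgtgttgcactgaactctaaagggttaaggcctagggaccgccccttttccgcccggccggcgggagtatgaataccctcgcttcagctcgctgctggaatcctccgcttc
Nr2e1, chr10:42583591-42583840, minus strand: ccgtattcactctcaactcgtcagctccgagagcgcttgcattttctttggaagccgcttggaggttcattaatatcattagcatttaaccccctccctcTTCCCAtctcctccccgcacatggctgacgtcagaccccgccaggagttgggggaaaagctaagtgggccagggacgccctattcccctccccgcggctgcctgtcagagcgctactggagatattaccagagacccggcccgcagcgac
Fabp7, chr10:57784673-57784922, plus strand: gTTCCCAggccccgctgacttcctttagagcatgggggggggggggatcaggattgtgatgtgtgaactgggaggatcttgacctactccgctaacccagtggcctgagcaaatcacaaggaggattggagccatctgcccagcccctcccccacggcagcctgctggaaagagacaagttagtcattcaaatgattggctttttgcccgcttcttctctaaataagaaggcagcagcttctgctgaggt
Lhx2, chr2:38339031-38339280, plus strand: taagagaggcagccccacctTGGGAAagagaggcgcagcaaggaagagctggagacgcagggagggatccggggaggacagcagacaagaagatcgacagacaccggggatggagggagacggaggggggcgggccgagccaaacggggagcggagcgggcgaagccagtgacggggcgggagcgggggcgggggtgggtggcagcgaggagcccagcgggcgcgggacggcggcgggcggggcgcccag
These windows hold 15, 15, 4 and 25 CpG dinucleotides in the order shown, against a median of 6 over 32851 RefSeq windows of the same length. Windows were found for 9 of the 10 genes, all but Sox9, and came to 12 with second starts. The RBPJ core was in 6 of the 12 windows and in 21.6% of all windows, and the SOX core ACAAAG was in 2 of 12 and in 5408 of the 32851. The homeodomain core TAATTA, present in 4.84% of all windows, the GLI motif TGGGTGGTC, in 0.225%, and the TATA motif TATAAA, in 12.4%, were in none of the 12. Both strands were searched for each motif, TAATTA is its own reverse complement, and the matches describe letters only.

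Levels of different genes were set side by side per length, as FPKM. Fabp7 and Lhx2 were the most abundant of the 10 genes in every group, at mean FPKM of 329 and 360.3 in control, 313.5 and 354 in shRNA, 329 and 205 in wild type and 401 and 186 in PlyA-KI. In wild-type cortex the order then ran Nes (130.3 FPKM), Nr2e1 (83.8), Sox2 (80.0), Pax6 (68.7), Emx2 (45.5), Gli3 (38.9), Prom1 (36.9) and Sox9 (35.6). The 2 libraries of neighbouring genes overlapped for Nr2e1 and Sox2, for Gli3 and Prom1 and for Prom1 and Sox9, so those neighbours are not ordered beyond their spread. In the sorted control cells Sox2 (53.4 FPKM), Pax6 (49.1) and Emx2 (30.2) followed Lhx2 and Fabp7, and Nes (20.7 FPKM) had dropped in among Prom1 (21.9), Nr2e1 (21.6), Sox9 (20.5) and Gli3 (14.4). Of these, Sox2 and Pax6 overlapped, as did Prom1 and Nr2e1, Nr2e1 and Nes, and Nes and Sox9. In shRNA cells Lhx2 and Fabp7, Sox2 and Pax6, Emx2 and Nes, and Nes and Sox9 overlapped, and in PlyA-KI only Sox2 and Nr2e1 did among neighbours in the order. Together the 10 genes held 1954 and 1961 CPM in control, 1808 and 1684 in shRNA, 2952 and 3015 in wild type and 2514 and 2633 in PlyA-KI. Both libraries of each manipulated group lay below both of its own controls in this sum. The largest share of the sum was that of Lhx2 in the sorted cells (41.2 to 46.5% of the summed CPM) and of Nes in the E13.5 cortex (22.2 to 27.3%).

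**Figure D1:**
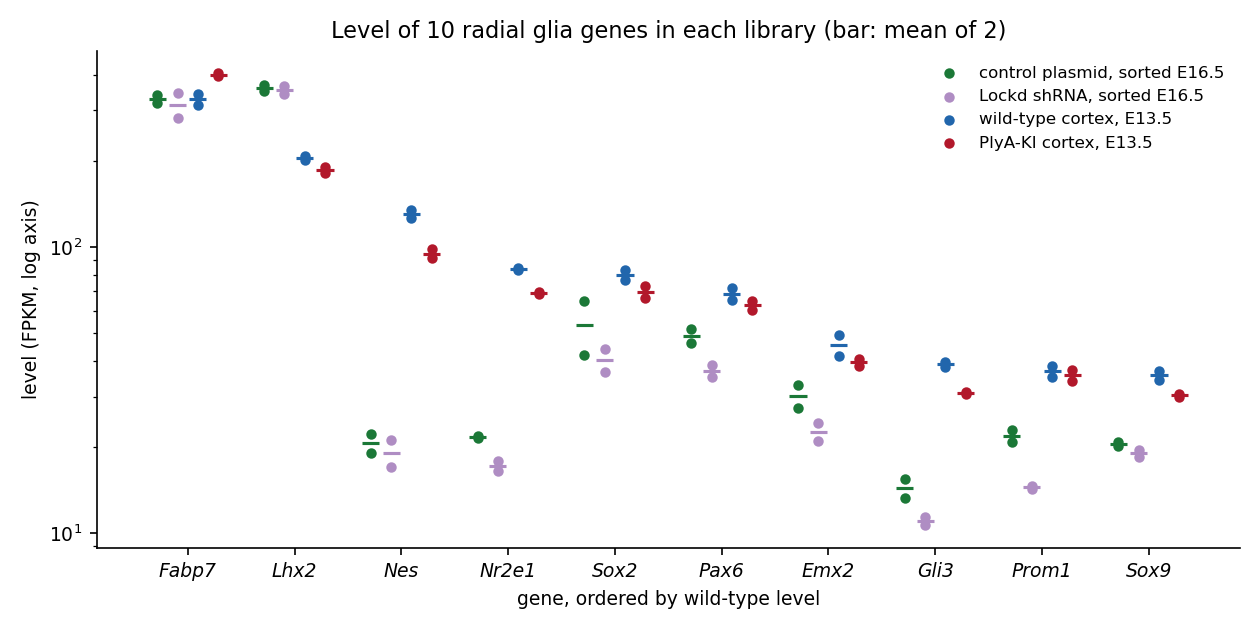
FPKM of each of the 10 genes (x axis, ordered by wild-type level) in every library, on a log axis, with 1 point per library, coloured by group, and a bar at the mean of the 2 libraries of a group. Nes lay at 91.3 to 134 FPKM in the E13.5 cortex and at 17.0 to 22.2 FPKM in the sorted E16.5 cells, while Fabp7 lay between 282 and 404.5 FPKM in all 8 libraries.

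In PlyA-KI cortex, 9 of the 10 genes were lower than in wild type by their fitted value and Fabp7 was higher, and no difference passed the adjusted threshold. The gap was widest for Nes, the progenitor filament, with a mean of 582 ± 31.9 CPM in PlyA-KI against 798 ± 35.7 CPM in wild type (SD, n = 2 each). It was followed by Gli3 and Nr2e1. With edgeR's quasi-likelihood test, 0 of the 10 genes had a Benjamini-Hochberg adjusted p under 0.05, where 8 of 15398 genes tested did (0.0520%). At an unadjusted p under 0.05 there were 6 of the 10 (Nes, Gli3, Nr2e1, Fabp7, Sox9 and Sox2), against 12.5% of all genes, and DESeq2 called 2, Nes and Gli3. The median log2 fold change was −0.21 over the 10 genes and 0.01 over all genes tested, and 48.2% of all genes had a value below 0. In tissue libraries such as these, fewer cells of a type and less RNA per cell cannot be told apart.

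Among the structural and surface markers, Nes stood at 773 and 823.5 CPM in wild type and at 559 and 604 CPM in PlyA-KI. Both PlyA-KI libraries lay below both wild-type libraries, and the log2 fold change was −0.47 (SE 0.09, 95% interval −0.66 to −0.27, edgeR adjusted p = 0.155). The Nes difference ran from −0.54 to −0.40 when any 1 library was left out. Its adjusted p then reached 0.000751 without PlyA-KI replicate 2, and over 9 alternative settings other than the replicate block it ran from 9.6e-05 to 0.626 and was under the threshold in 4. Fabp7 stood at 262 and 239.7 CPM in wild type and at 302 and 308 CPM in PlyA-KI, so its groups were apart in the opposite direction. Its log2 fold change was 0.27 (SE 0.08, 95% interval 0.10 to 0.44, edgeR adjusted p = 0.270), and its share of the summed FPKM of the 10 genes was 32.5 and 29.9% in wild type and 39.7 and 38.9% in PlyA-KI. Prom1 stood at 144 and 158 CPM in wild type and at 139.9 and 153 CPM in PlyA-KI. Its groups overlapped, and its log2 fold change was −0.06 with a 95% interval of −0.25 to 0.13.

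Among the transcription factors, Gli3 stood at 335 and 320.2 CPM in wild type and at 259 and 262 CPM in PlyA-KI (log2 fold change −0.34, SE 0.07, edgeR adjusted p = 0.191). Its adjusted p was under the threshold in 3 of 9 alternatives other than the replicate block, with a range from 0.00485 to 0.682. Nr2e1 stood at 269 and 273 CPM in wild type and at 226 and 221 CPM in PlyA-KI (−0.29, SE 0.07, edgeR adjusted p = 0.248). Replicates of these 2 genes lay close together, and the groups were apart. Sox9, a factor of neural stem cells and later of glia, stood at 153 and 142.5 CPM in wild type and at 127 and 124 CPM in PlyA-KI (−0.24, SE 0.08). Sox2, which holds progenitors undifferentiated, stood at 205 and 188 CPM against 163 and 179.9 CPM in PlyA-KI (−0.21, SE 0.08). The patterning factors were apart as well, by smaller gaps than Nes or Gli3. Pax6 stood at 241 and 264 CPM in wild type and at 222 and 239 CPM in PlyA-KI (−0.15, SE 0.08), Emx2 at 108 and 128 against 100.1 and 106 CPM (−0.21, SE 0.10), and Lhx2 at 461.5 and 477 against 416 and 435.5 CPM (−0.15, SE 0.08). With 1 library left out, Emx2 ran from −0.33 without WT replicate 1 to −0.08 without WT replicate 2, Pax6 was −0.08 without WT replicate 2 or PlyA-KI replicate 1, and Sox2 was −0.13 without PlyA-KI replicate 1. All 7 factors had both PlyA-KI libraries below both wild-type libraries. Counting all 10 genes, 8 had groups that did not overlap with PlyA-KI lower and 1 with PlyA-KI higher, where 20.0% and 23.7% of all genes tested did so.

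Beyond these 10 genes, 26 of 32 further genes of radial glia had a value below 0 in PlyA-KI (median −0.07 on the log2 scale). Of these, edgeR called 0 and DESeq2 called 2. The count was 19 of 32 without WT replicate 1, and the median was −0.12 without WT replicate 2 and −0.11 without PlyA-KI replicate 1 or replicate 2. The smallest p among them belonged to Notch1, the receptor that keeps radial glia from differentiating (−0.37, SE 0.08, edgeR adjusted p = 0.180), Dach1, a transcriptional cofactor (−0.39, SE 0.08), Zfp36l1, an RNA-binding protein that destabilises messages (−0.26, SE 0.08), and Msi1, the RNA-binding protein Musashi-1 (−0.24, SE 0.07). Of 13 genes of the apical junctions and polarity complexes that anchor radial glia at the ventricle, 11 had a value below 0, with a median of −0.13 and 0 called. The smallest p here belonged to Crb2, an apical polarity protein (−0.30, SE 0.09), Pard3, a scaffold of the PAR complex (−0.25, SE 0.08), and Ctnna1, the alpha-catenin of adherens junctions (−0.26, SE 0.08).

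Markers of other cells are given beside these values. The 16 intermediate progenitor genes had 9 values above 0 and 7 below (median 0.03, 0 called by edgeR and 1 by DESeq2). The median of this list ran from −0.12 without WT replicate 2 to 0.14 without WT replicate 1. The 16 neuronal markers summed to 5557 and 4647 CPM in wild type and to 6817 and 5622 CPM in PlyA-KI, and 15 of 16 had a value above 0 (median 0.33, 0 called by edgeR and 4 by DESeq2). Their median ran from 0.14 without WT replicate 2 to 0.51 without WT replicate 1, and was also 0.14 without PlyA-KI replicate 1. The S phase list had 17 of 18 values below 0 (median −0.20) and the G2 and M phase list 17 of 18 (median −0.12), with 0 called in either by edgeR and 1 in each by DESeq2. Both medians moved with the library left out. They were −0.09 and −0.04 without PlyA-KI replicate 1, with 13 and 10 of 18 below 0, and −0.09 and −0.03 without WT replicate 2. They were −0.31 and −0.19 without WT replicate 1 and −0.32 and −0.21 without PlyA-KI replicate 2. With the replicate number as a block, a pairing the labels do not state, they were −0.20 and −0.12. S phase genes summed to 4174 and 4875 CPM in wild type and 3689 and 4223 CPM in PlyA-KI. G2 and M phase genes summed to 5984 and 6760 against 5505 and 6199 CPM, and the groups overlapped in both sums. Endothelial and microglial markers each had 5 values above 0 and 5 below (medians −0.03 and −0.0068), and these counts turned on single libraries. Without PlyA-KI replicate 2, 9 of 10 endothelial and 8 of 10 microglial values lay below 0 (medians −0.28 and −0.31). Without PlyA-KI replicate 1, 7 of 10 of each lay above 0 (medians 0.10 and 0.24). Ganglionic eminence markers, genes of the ventral forebrain next to the cortex, summed to 60.1 to 73.4 CPM in wild type and 77.8 to 95.4 CPM in PlyA-KI. Of 9 tested, 7 had a value above 0 (median 0.76, 0 called by edgeR or DESeq2). The median was 0.36 without PlyA-KI replicate 1 and 1.02 without WT replicate 1. Erythroid genes summed to 349.7 and 390.0 CPM in wild type and to 442 and 636 CPM in PlyA-KI, and Alas2, an enzyme of haem synthesis, was called higher (1.01, SE 0.13, edgeR adjusted p = 0.0229). Mural and meningeal markers were at 265 and 273.5 CPM in wild type, 225 CPM in PlyA-KI replicate 1 and 489 CPM in PlyA-KI replicate 2. Of 11 tested, 10 had a value above 0 (median 0.51). Without PlyA-KI replicate 2 this was 3 of 11 (median −0.20), and the Nes difference was −0.54. The part of the other markers in the differences of the 10 genes was not tested.

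In cells electroporated with the Lockd shRNA, all 10 genes were lower than in control cells by their fitted value, and no difference passed the adjusted threshold. The widest gap was that of Prom1, the apical membrane marker, with a mean of 59.5 ± 0.996 CPM in shRNA against 90.0 ± 5.85 CPM in control (SD, n = 2 each). Emx2, Pax6, Sox2, Gli3 and Nr2e1 followed, with log2 fold changes from −0.40 to −0.31, while Lhx2, Fabp7, Sox9 and Nes lay between −0.10 and −0.01. With edgeR, 0 of the 10 genes and 0 of 13758 genes tested (0%) had an adjusted p under 0.05. At an unadjusted p under 0.05 there were 5 of the 10 (Prom1, Pax6, Gli3, Emx2 and Nr2e1), against 7.51% of all genes, and DESeq2 called 0 of the 10. The median log2 fold change was −0.34 over the 10 genes and −0.00043 over all genes tested, of which 50.1% had a value below 0. The median of the 10 genes was −0.19 without control replicate 1, and 7 of the 10 were below 0 without shRNA replicate 2.

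Prom1 stood at 85.9 and 94.2 CPM in control and at 58.8 and 60.2 CPM in shRNA cells. Both shRNA libraries lay well below both controls, and the log2 fold change was −0.58 (SE 0.14, 95% interval −0.87 to −0.29, edgeR adjusted p = 0.204). Leaving out any 1 library gave −0.65 to −0.50, and the adjusted p was under the threshold in 2 of 9 alternatives other than the replicate block, with a range from 0.0344 to 0.757. Fabp7 stood at 242 and 259 CPM in control and at 263 and 215 CPM in shRNA cells (−0.05, SE 0.14). Nes stood at 136 and 117 CPM in control and at 129.5 and 104 CPM in shRNA cells (−0.10, SE 0.14). The groups of both genes overlapped, and their 95% intervals of −0.35 to 0.25 and −0.41 to 0.21 do not show that they were alike.

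Of the factors, Pax6 stood at 170.1 and 191 CPM in control and at 129.7 and 142 CPM in shRNA cells (log2 fold change −0.39, SE 0.13, edgeR adjusted p = 0.390). Emx2 stood at 71.0 and 85.8 CPM in control and at 54.5 and 63.2 CPM in shRNA cells (−0.40, SE 0.15, edgeR adjusted p = 0.510). Gli3 stood at 131 and 112 CPM in control and at 89.9 and 96.0 CPM in shRNA cells (−0.37, SE 0.13, edgeR adjusted p = 0.452). In these 3 genes the replicates were spread and the groups were still apart. Nr2e1 stood at 70.4 and 69.4 CPM in control and at 58.0 and 53.3 CPM in shRNA cells (−0.31, SE 0.14), and Sox9 at 84.0 and 86.3 against 81.2 and 76.7 CPM (−0.09, SE 0.13), both without overlap. Sox2 stood at 159 and 103 CPM in control and at 108 and 89.9 CPM in shRNA cells, so its groups overlapped. Control replicate 1 set its difference: the log2 fold change was −0.39 (SE 0.18) with all libraries, −0.04 without control replicate 1 and −0.65 without control replicate 2. Lhx2 stood at 805 and 842 CPM in control and at 835 and 783 CPM in shRNA cells (−0.01, 95% interval −0.29 to 0.27), also with overlap. In all, 6 of the 10 genes had both shRNA libraries below both controls, where 19.8% of all genes tested did.

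**Figure D2:**
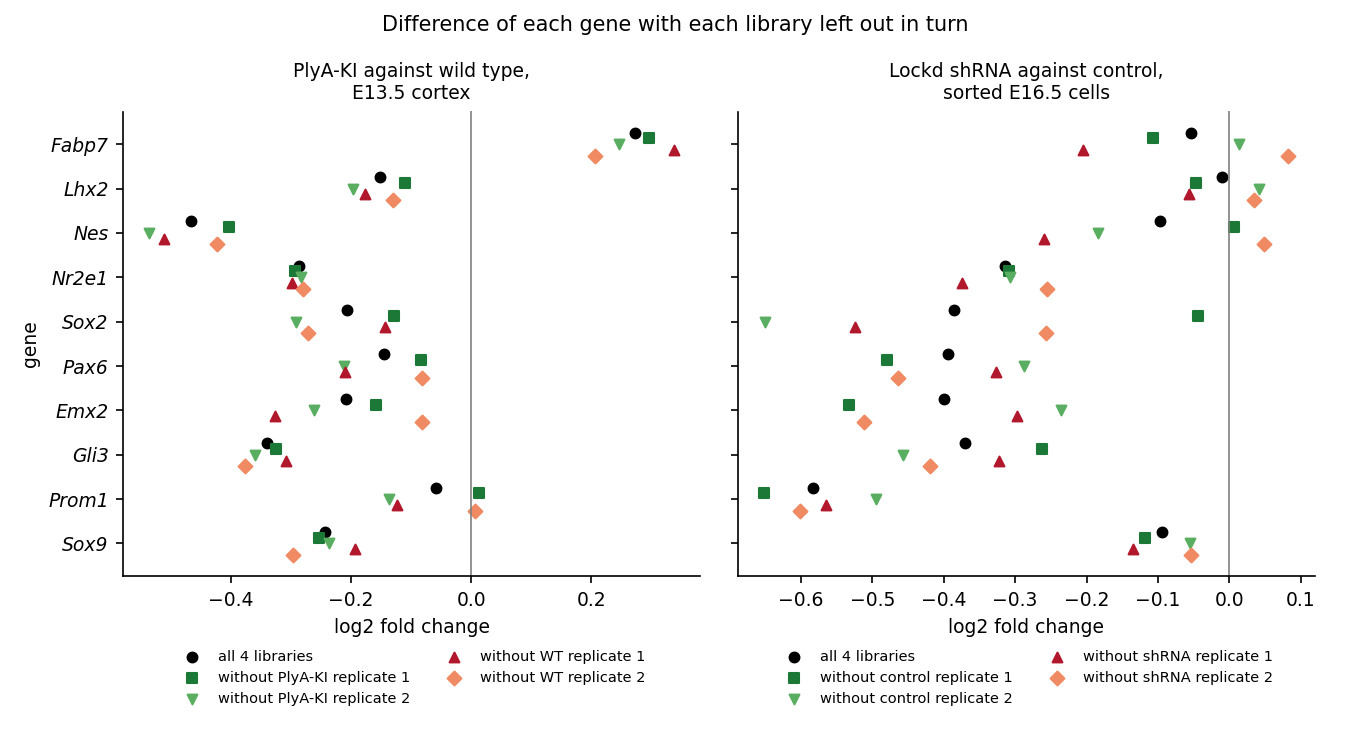
Log2 fold change of each gene with all 4 libraries of an experiment (black) and with each library left out in turn (coloured symbols), in the E13.5 cortex (left) and in the sorted E16.5 cells (right). The x axes differ in range. Nes stayed between −0.54 and −0.40 in the E13.5 cortex and Prom1 between −0.65 and −0.50 in the sorted cells, while Sox2 ran from −0.65 to −0.04 in the sorted cells.

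The further radial glia genes had 23 of 32 values below 0 in shRNA cells (median log2 fold change −0.17, 0 called by edgeR or DESeq2). Without shRNA replicate 2 this was 18 of 32 and −0.07, and without shRNA replicate 1 it was 27 of 32 and −0.26. The smallest p belonged to Notch1 (−0.43, SE 0.15, edgeR adjusted p = 0.390), Sox1, a SOX factor of neural progenitors (−0.55, SE 0.20), Tfap2c, a transcription factor of cortical progenitors (−0.42, SE 0.16), and Jag1, a Notch ligand (−0.44, SE 0.19). The apical junction genes had 7 of 13 values below 0 and a median of −0.02, which was −0.12 without shRNA replicate 1. Beside these lists, the G2 and M phase genes had 18 of 18 values below 0 (median −0.66), the S phase genes 18 of 18 (median −0.55) and the intermediate progenitor genes 14 of 16 (median −0.41), while 15 of 16 neuronal markers lay above 0 (median 0.22), all with 0 called by edgeR. DESeq2 called 7 of the G2 and M phase genes and 3 of the S phase genes lower and 1 neuronal marker higher. With 1 library left out, edgeR called 0 to 12 G2 and M phase genes, the fewest without control replicate 2 and the most without control replicate 1, and 1 to 8 S phase genes, the most without shRNA replicate 1, with all 18 values of both lists below 0 each time. The neuronal median was 0.11 without shRNA replicate 2. Oligodendrocyte precursor markers had 5 of 5 tested values below 0 (median −0.73) and summed to 68.3 and 73.6 CPM in control and 49.0 and 34.3 CPM in shRNA cells, and ganglionic eminence markers had 7 of 10 below 0 (median −0.41), with 0 called in either by edgeR or DESeq2. The ganglionic eminence median was −0.24 without control replicate 1. Microglial markers had 7 of 10 values above 0 (median 0.41), but the median was 1.70 without control replicate 1 and −0.32 without control replicate 2. G2 and M phase genes summed to 1805 and 2105 CPM in control and 1294 and 1133 CPM in shRNA cells, and neuronal markers to 7275 and 7978 against 8593 and 8968 CPM. Their part in the differences of the 10 genes was not tested.

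**Figure D3:**
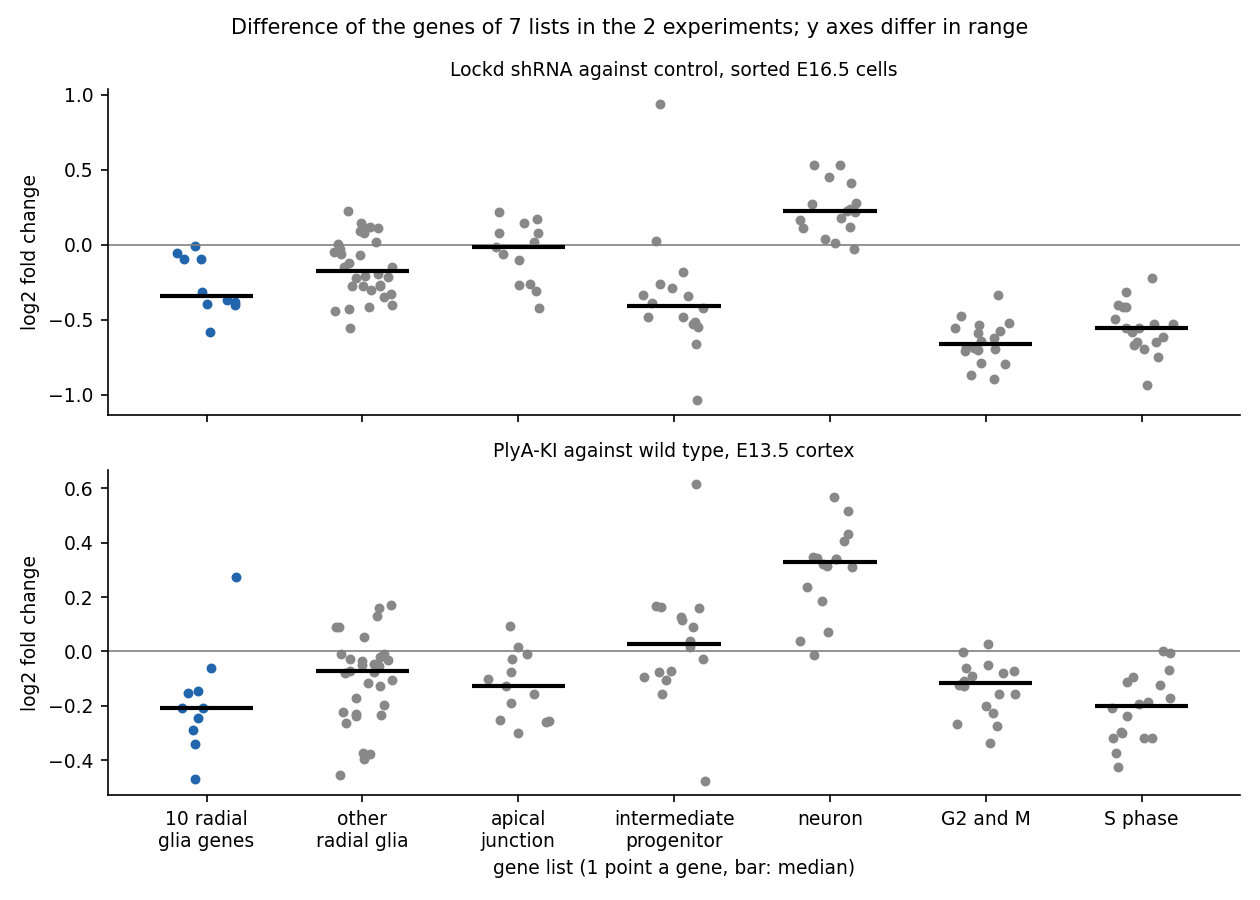
Log2 fold change (y axis) of every tested gene of 7 gene lists (x axis), 1 point per gene with the median of the list as a bar, in the sorted E16.5 cells (top) and in the E13.5 cortex (bottom), where the y axes differ in range. From top to bottom, the 10 radial glia identity genes have medians of −0.34 and −0.21, the neuronal markers of 0.22 and 0.33, and the G2 and M phase genes of −0.66 and −0.12.

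The differences in the 2 experiments were set against each other as an interaction in 1 edgeR fit of all 8 libraries. None of the 10 genes was called (0 of 10, against 2 of 15641 genes or 0.0128%), nor by DESeq2. Prom1 had the smallest p, with a difference that was lower in the shRNA than in the PlyA-KI comparison by a log2 value of −0.52 (SE 0.15, 95% interval −0.85 to −0.19, edgeR unadjusted p = 0.00448, adjusted p = 0.593), and was the only 1 of the 10 genes with an unadjusted p under 0.05, which 7.04% of all genes had. Nes lay the other way at 0.37 (95% interval −0.01 to 0.75) and Fabp7 at −0.32 (95% interval −0.68 to 0.03). The experiments differ in strain, age, sample type and the way Lockd was altered, which cannot be told apart in this contrast.

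The largest differences in the 10 genes were between the sorted E16.5 control cells and the E13.5 wild-type cortex. Here 8 genes were lower in the sorted cells, Lhx2 was higher and Fabp7 did not pass the test. Nes fell most, to 0.158 times its E13.5 level, followed by Nr2e1 at 0.257 times and Gli3 at 0.369 times. With edgeR, 9 of the 10 genes had an adjusted p under 0.05, where 61.6% of 15111 genes tested did (30.3% higher and 31.3% lower), so the count itself is set against a high background. Groups were apart for 8 genes lower and 1 higher, where 41.6% and 40.4% of all genes were. The median log2 fold change was −0.68 over the 10 genes and −0.02 over all genes. Strain, age, electroporation, the sort and the depth of the libraries all differ between these groups and cannot be told apart.

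The log2 fold change of Nes was −2.66 (SE 0.11, edgeR adjusted p = 6.2e-09), from 798 ± 35.7 CPM in wild type to 126.5 ± 13.2 CPM in control cells (SD, n = 2 each). Among all detected genes ranked by FPKM, Nes moved from the 97.8th percentile in wild type to the 76.7th in the control cells. Nr2e1 changed by −1.96 (SE 0.10, edgeR adjusted p = 2.8e-08) and Gli3 by −1.44 (SE 0.11, edgeR adjusted p = 3.9e-07). The remaining genes that fell changed less. Sox9 was lower by a log2 fold change of −0.80 (SE 0.10), Prom1 of −0.75 (SE 0.11), Emx2 of −0.60 (SE 0.13), Sox2 of −0.59 (SE 0.16) and Pax6 of −0.49 (SE 0.11), with edgeR adjusted p from 2.7e-05 to 0.00602. The Sox2 value rested in part on the spread of its controls, at −0.92 without control replicate 1 and −0.31 without control replicate 2, and passed the test both times. Lhx2 was higher in the sorted cells, at 805 and 842 CPM against 461.5 and 477 CPM (0.81, SE 0.10, edgeR adjusted p = 2.2e-05). Fabp7, at 242 and 259 CPM against 262 and 239.7 CPM, differed by −0.01 (95% interval −0.23 to 0.21, edgeR adjusted p = 0.958), a value whose sign turned to 0.00012 with DESeq2 size factors.

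**Figure D4:**
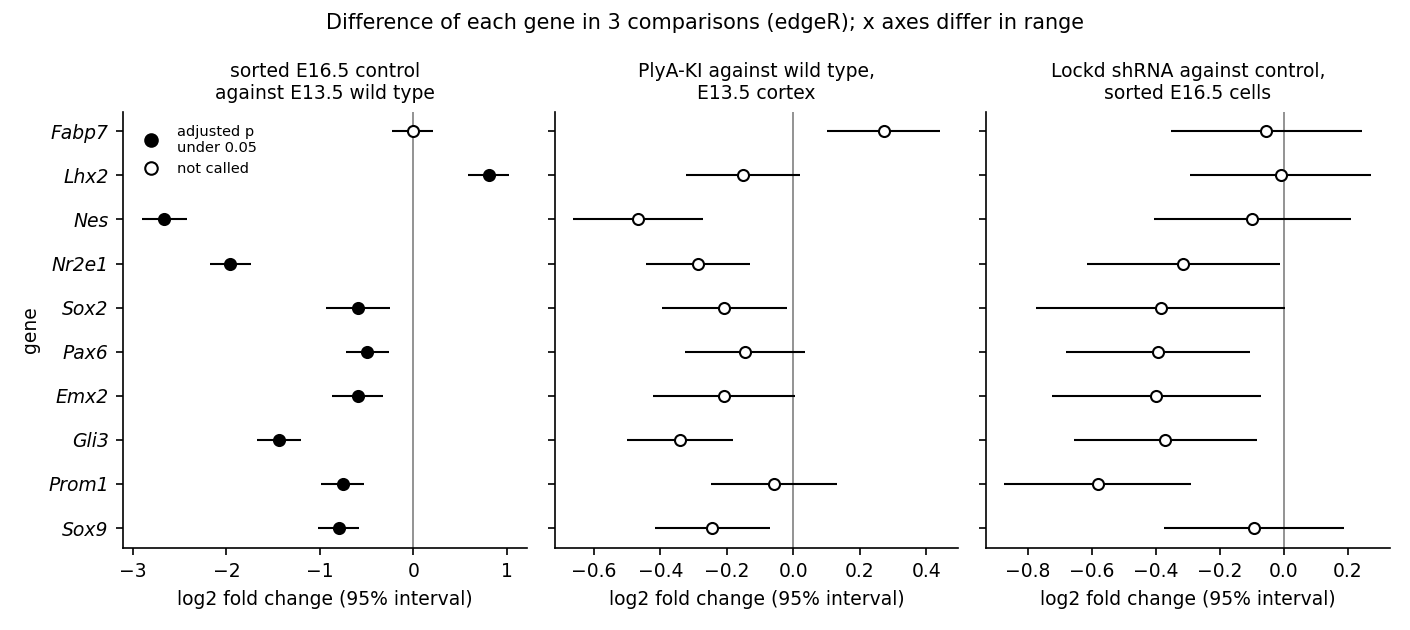
Log2 fold change of each gene in 3 comparisons, as points with 95% intervals from the edgeR fits. Filled points have an adjusted p under 0.05, and the x axes differ in range. In the left panel (sorted E16.5 control against E13.5 wild type) 9 genes are filled, from Nes at −2.66 to Lhx2 at 0.81, and in the other panels none is.

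Of the 32 further radial glia genes, edgeR called 18 lower and 7 higher in the sorted control cells, against 31.3% and 30.3% of all genes tested. By sign, 23 of the 32 were lower and 9 higher, and their median was −0.68 on the log2 scale. The smallest p belonged to Tnc, an extracellular matrix glycoprotein, which rose by 5.33 (SE 0.16), and to Id4, an inhibitor of bHLH factors (−2.78, SE 0.11), Dach1 (−3.47, SE 0.16) and Ttyh1, a membrane protein of neural stem cells (−2.05, SE 0.10), which fell (edgeR adjusted p from 5.4e-10 to 2.6e-08). Of the 13 apical junction genes, 7 were called lower and 1 higher (11 and 2 by sign). Of the S phase and G2 and M phase genes, 17 of 18 and 18 of 18 were called lower, with medians of −1.55 and −1.64. Endothelial markers summed to 21.3 to 24.5 CPM in the sorted cells and 130 to 138 CPM in the E13.5 cortex. Of these 10 markers, 9 were called lower (list median −5.38 on the log2 scale), while Slco1c1 was called higher (5.37, SE 0.31). Mural and meningeal markers summed to 7.24 to 12.6 and 265 to 273.5 CPM, and erythroid genes to 6.76 to 8.12 and 349.7 to 390.0 CPM. Microglial markers did not share this fall. They summed to 34.67 and 8.22 CPM in the sorted control cells and 22.25 and 22.5 CPM in the E13.5 cortex. Of 10 tested, 6 had a value above 0 and 4 below (median 0.30), with 1 called higher and 1 lower. Neuronal markers summed to 7275 to 7978 CPM in the sorted cells and 4647 to 5557 CPM in the E13.5 cortex. Oligodendrocyte precursor markers summed to 68.3 and 73.6 CPM in the sorted cells and 12.3 and 11.7 CPM in the E13.5 cortex, and 4 of 6 were called higher. The part of these markers in the fall of Nes, which vascular cells also make, and of the other genes was not tested.

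Likeness of pattern was measured as the root mean square difference of log2 CPM over the 8 libraries (each CPM plus 0.5) after centring each gene, among 9800 genes with a mean of 10 CPM or more. The libraries share their depth and group, so these values are a description. Pax6 was the nearest of all genes to Emx2 (0.06), and Emx2 was the gene at rank 3 for Pax6, after Scpep1 (0.06) and Gm6793. None of the other 9 genes had a member among its 2 nearest genes. The nearest genes were Fzd7 for Sox2 (0.07), Aldh5a1 for Sox9 (0.04), Cd276 for Lhx2 (0.05), Pole2 for Nr2e1 (0.08), Spata13 for Gli3 (0.07), Yap1 for Nes (0.08), Dnajc10 for Prom1 (0.05) and Tmem175 for Fabp7 (0.07). Lhx2 and Fabp7 were far from the other members. The most alike member of Lhx2 was Fabp7, at rank 5684 (0.55), and that of Fabp7 was Pax6, at rank 4796 (0.32).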

How the data were processed

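Reads were processed by the authors. The submitters' processing notes name HISAT2, featureCounts, Trimmomatic and bcl2fastq with mm10. No source used here gives versions, annotation or strand setting. The authors deposited whole-number counts per gene and library, not normalised, and beside them FPKM values, the count scaled by gene length and library total. Of nonzero FPKM values, 100% lay within 0.1 percent of that ratio. The gene length used there was itself the median implied by the counts and FPKM values over the libraries. The check therefore covers only whether the implied length was constant across libraries. Of the 27178 Entrez identifiers, 25274 were named through RefSeq (GRCm38.p6), 18 through GENCODE, and 1886 stayed unnamed in all tests. CPM is the count over the deposited library total.

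Each comparison was fitted on its 4 libraries, and the interaction on all 8, with edgeR 4.0.16 in R 4.3.3: filterByExpr, TMM scaling, the two-sided quasi-likelihood F-test and Benjamini-Hochberg adjustment over all genes tested, with a threshold of 0.05. The SE of a log2 fold change is its size divided by the root of F. With 2 libraries per group, an exact permutation test cannot go below 0.333 and was not used. The alternatives were DESeq2 size factors, the Wald test of DESeq2 1.42.0, no filter, CPM of 1 or more in 2 libraries, a block for the replicate number, 1 fit of all 8 libraries, and each library left out. The steps were tested on simulated counts, drawn with the same scatter setting for every gene. That setting was not estimated from these libraries, so the test does not measure the power of the comparisons here. The genes named beyond the 10 members are those of each list with the smallest p and the nearest in pattern. The members and lists were chosen with earlier results of these data known.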

Additional observations from a re-analysis of the deposited data

How the results depend on the processing

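Between the sorted E16.5 control cells and the E13.5 wild-type cortex, 9 of the 10 genes were called under every alternative, and 7044 to 9511 genes in all with 1 library left out. In the shRNA comparison, where edgeR called 0 genes and 0 members, all genes called came to 184 with no filter, 53 in 1 fit of all 8 libraries, 49 with DESeq2 and 18 to 133 with 1 library left out. Prom1 was the 1 member called with no filter and in 1 fit of all 8 libraries, and left-out libraries gave 0 members. In the PlyA-KI comparison, with 8 genes and 0 members called, all genes came to 484 with no filter, 4 in 1 fit of all 8 libraries, 116 with DESeq2 and 48 to 565 with 1 library left out. Members called were 3 with no filter (Nes, Gli3, Nr2e1), 2 with DESeq2 (Nes, Gli3) and 0 to 2 with a library left out: Nes without PlyA-KI replicate 1, Nes and Gli3 without PlyA-KI replicate 2. The interaction, with 2 genes called, gave 97 with no filter, 25 with DESeq2 and 2 to 8 with 1 library left out, and 0 members throughout. The cause of these differences was not tested.

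Signs turned only for values near 0 or with wide spread. With no filter these were Lhx2 in the shRNA comparison (0.0019) and Nr2e1 (0.0027) and Gli3 (0.0014) in the interaction. For Fabp7 between the sorted control cells and the wild-type cortex the value was 0.00012 with DESeq2 size factors and 0.00015 with the Wald test. Some ranges crossed 0 with 1 library left out. In the shRNA comparison these were −0.056 to 0.042 for Lhx2, −0.26 to 0.049 for Nes and −0.21 to 0.083 for Fabp7. The PlyA-KI comparison had −0.14 to 0.012 for Prom1. Between the sorted control cells and the wild-type cortex it was −0.076 to 0.058 for Fabp7. The interaction had −0.44 to 0.15 for Sox2, −0.12 to 0.066 for Gli3 and −0.10 to 0.041 for Nr2e1. Member CPM moved by less than the replicate spread with TMM scaling in all 40 cases.

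Same-numbered libraries share only a number in the labels. Their deviations from the group means correlated at 0.10 in the sorted cells and 0.09 in the E13.5 cortex over 15641 genes. Some list sums of the E13.5 cortex still moved with the number. Neuronal sums were higher in replicate 1 of both groups, and S phase and G2 and M phase sums in replicate 2. Endothelial and oligodendrocyte precursor sums, among others, moved in opposite directions in wild type and PlyA-KI. With 2 libraries per group, whether the number stands for a shared factor cannot be decided. With the replicate number as a block, the shRNA comparison called 161 genes and 1 member (Prom1), and the PlyA-KI comparison 2193 genes and 9 members, all but Prom1. The comparison of the sorted control cells with the wild-type cortex kept 9 members called and the interaction 0. The smallest p an exact permutation of 2 against 2 libraries allows is 0.333. With 1 library left out, the lone library is assumed to vary like the others.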
